A study of Mus musculus with 10 samples.

Results

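The genes of the autophagy machinery were examined in hippocampal tissue from the APP/PS1 strain, whose human transgenes lead to amyloid plaques. The 36 genes were listed by symbol from the known core pathway, and a gene was kept if its normalised count reached 10 in at least 5 of the 10 libraries. All 36 of 36 listed genes passed, out of 17556 genes that passed and 31510 genes in the table. Male mice aged 8 months received by tail vein either AAV8-Irisin-FLAG (AAV8-irisin, 5 mice), a vector for the secreted fragment of Fndc5 carrying a tag, or AAV8-GFP (5 mice), and the hippocampus was dissected 2 months later for bulk RNA sequencing of polyadenylated RNA. Both groups carry the APP/PS1 transgenes and both received an AAV8 vector, so no mouse without transgenes or without vector enters the comparison. The route was meant to make the liver the source of irisin, so the hippocampus was a distant tissue.

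Autophagy delivers cytoplasmic material to lysosomes inside a double membrane, the autophagosome. The ULK kinase complex starts the process, a class III PI3-kinase complex marks the membrane with a lipid, ATG9 vesicles and ATG2 lipid transfer proteins feed its growth, and a pair of ubiquitin-like conjugation systems attach ATG8 proteins (LC3 and GABARAP) to it. Cargo receptors such as p62 bind both ubiquitinated cargo and ATG8. In neurons the pathway clears aggregates and worn organelles, and autophagic vacuoles are known to gather in swollen neurites around amyloid plaques. Much of its control lies in phosphorylation and protein turnover, which RNA levels do not show.

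No autophagy gene differed between the groups at the threshold. By limma with Benjamini-Hochberg adjustment over 17556 genes, 0 of 36 genes had an adjusted p under 0.05, against 0% of all genes tested, and adjusted p-values of the 36 ran from 0.942 to 0.995. An unadjusted p under 0.05 was found for 3 of the 36 genes (Atg9b, Atg14 and Rb1cc1), against 4.49% of all genes tested. All 3 had a higher mean in AAV8-irisin and 0 a lower one, against 2.28% and 2.21% of all genes tested. This count was 1 without AAV8-irisin mouse 2 or 5 and 5 without AAV8-GFP mouse 5. When each mouse was left out in turn, the unadjusted p was at or over 0.05 in 6 of 10 omissions for Rb1cc1, 4 of 10 for Atg14 and 0 of 10 for Atg9b. Groups did not overlap in 1 of the 36 genes, Atg14, which was higher, against 0.803% of all genes tested, with 0.382% higher and 0.422% lower. A higher mean in AAV8-irisin was seen in 15 of the 36 and a lower mean in 21, where 50.5% of all genes tested had a higher mean. The median log2 difference of the 36 was −0.014, and that of all genes tested was 0.00099. Throughout, a log2 difference is the AAV8-irisin mean less the AAV8-GFP mean of log2(normalised count + 1).

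The size of change that these data leave room for was small for most of the machinery. The standard error of a log2 difference had a median of 0.049 over the 36 genes, against 0.075 over all genes tested. The 95% interval of the difference lay within 0.2 of 0 on the log2 scale for 29 of the 36 genes, against 42.7% of all genes tested. The intervals of Atg9b, Atg14, Rb1cc1, Atg10, Atg16l2, Atg4a and Nbr1 reached beyond that size. An interval that includes 0 does not show that the groups were equal.

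**Figure D1:**
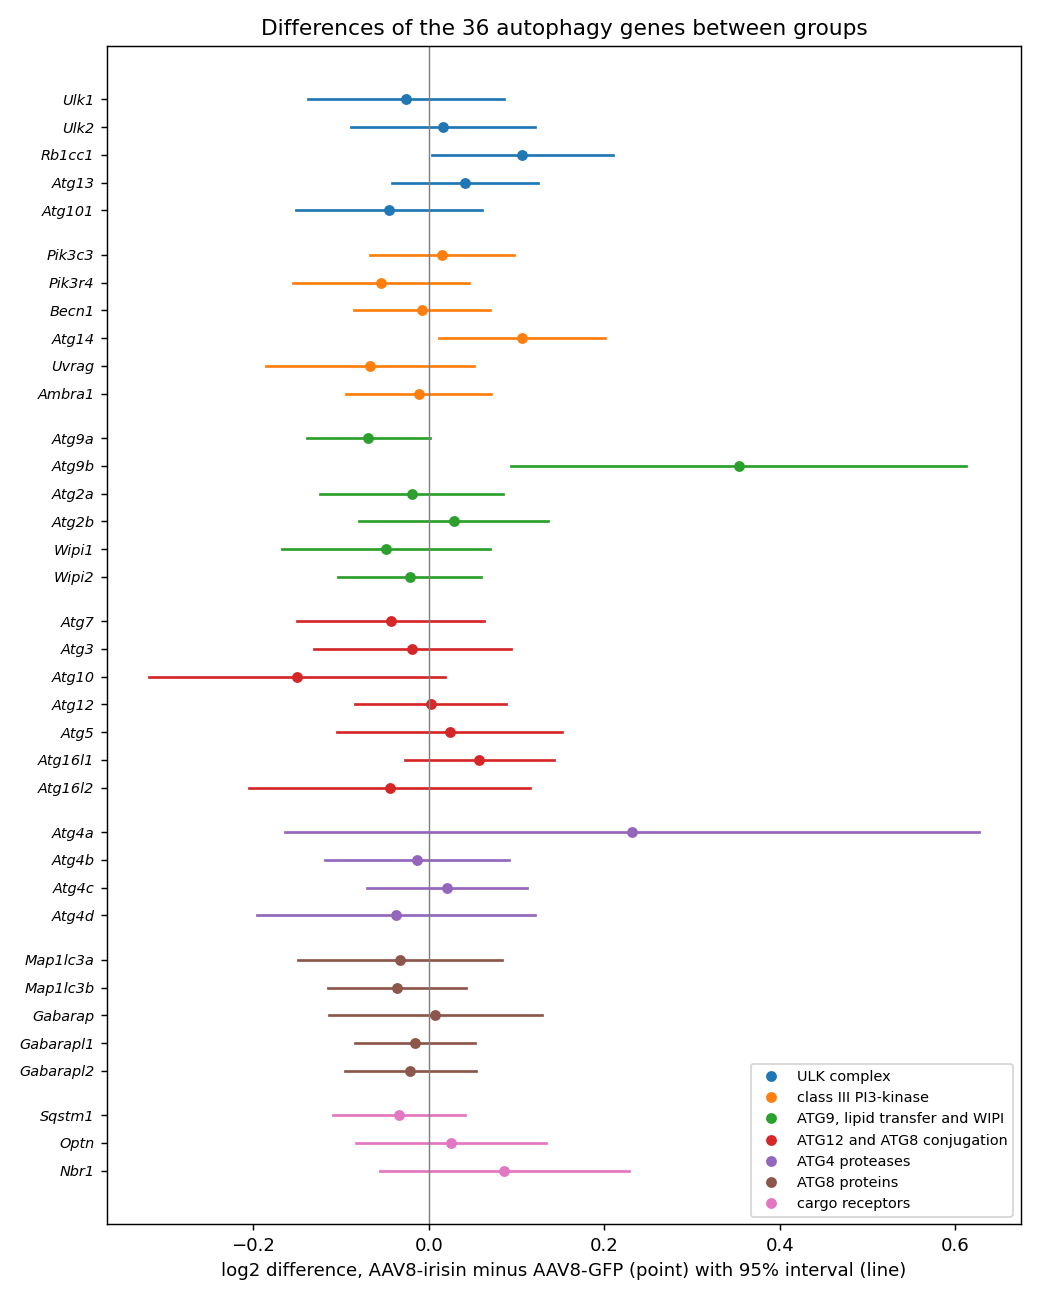
Log2 difference of normalised counts, AAV8-irisin minus AAV8-GFP, for each of the 36 autophagy genes grouped by role (points), with the 95% interval from limma (lines). Most points lie close to 0, and the intervals of Atg9b, Atg14 and Rb1cc1 alone lie wholly above 0 before any adjustment.

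Libraries summed to between 35284321 and 36623029 normalised counts, with an estimated depth of 33418011 to 37350356 reads in AAV8-irisin and 30705458 to 41508590 in AAV8-GFP. AAV8-GFP mouse 1 stood apart: it held the highest value of the 10 libraries in 19.7% of all genes tested and the lowest in 20.8%, while the other libraries each held the highest in 6.92% to 11.8%. Among the 36 autophagy genes it was highest in 10 and lowest in 6. Without it, 18 of the 36 means were higher in AAV8-irisin and the median log2 difference was −0.00081. Summed markers of neurons ran from 196227 to 200772 normalised counts in AAV8-irisin and from 191275 to 203837 in AAV8-GFP, and all 4 hippocampal markers (Prox1, Neurod6, Fibcd1, Zbtb20) were present. Fndc5 averaged 2479 ± 104 in AAV8-irisin and 2610 ± 74.0 in AAV8-GFP (SD, n = 5 each).

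Markers of other cells differed between libraries. The means of all 5 oligodendrocyte markers were higher in AAV8-irisin, with sums of 110321 to 132139 normalised counts in AAV8-irisin and 94990 to 127325 in AAV8-GFP. The 4 tested markers of plaque-associated microglia had a lower mean, with sums of 1577 to 2561 in AAV8-irisin and 1916 to 2945 in AAV8-GFP. Their median log2 difference was −0.31. The means of all 5 general microglia markers and 4 of 5 astrocyte markers were also lower, with a median log2 difference of −0.071 for microglia and −0.042 for astrocytes. AAV8-GFP mouse 3 had the highest sums of astrocyte, microglia and endothelium markers, at 159745, 15953 and 5248. The same mouse had the highest sum of plaque-associated microglia markers, 2945, and the lowest of oligodendrocyte markers, 94990. Its sums of neuron and hippocampus markers, 203837 and 32319, were also the highest. Choroid plexus markers, tested in 4 of 5, summed to 893 to 2527 in AAV8-irisin and 700 to 953 in AAV8-GFP. The highest sum was that of AAV8-irisin mouse 4, with 1528 of Ttr, and without it the AAV8-irisin sums ran from 893 to 1089. Kl, with 650 to 920 in each mouse, made up most of the sums in the other mice. Ttr alone had 86.2, 12.3, 162, 1528 and 56.6 in AAV8-irisin, against 27.6, 10.1, 14.1, 48.3 and 47.4 in AAV8-GFP. In 4 of 5 AAV8-irisin mice Ttr exceeded every AAV8-GFP value. The means of all 4 tested choroid plexus markers were higher in AAV8-irisin. The sums of all 5 red-cell markers, each with a lower mean, were 1669 to 3211 in AAV8-irisin and 1586 to 4502 in AAV8-GFP. The median sum was 1757 in AAV8-irisin and 3774 in AAV8-GFP, and the median log2 difference of the 5 red-cell markers was −0.65. The 5 liver markers were near 0, with sums of 7.16 to 14.4 in AAV8-irisin and 7.90 to 14.3 in AAV8-GFP. Their part in the autophagy values was not tested, and in bulk tissue fewer cells of a type and less RNA per cell cannot be told apart.

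Among the 5 genes of the ULK complex, which receives signals of nutrient and energy state, 3 had a higher and 2 a lower mean in AAV8-irisin, and 0 passed. Rb1cc1, also called FIP200, is the large scaffold of the complex. Its normalised counts were 3261, 3227, 3149, 2891 and 3308 in AAV8-irisin, against 2964, 2784, 2753, 3146 and 3065 in AAV8-GFP. Of the AAV8-irisin mice, 4 of 5 exceeded every AAV8-GFP value, and AAV8-irisin mouse 4 lay within the AAV8-GFP range. This gave a log2 difference of 0.11 (standard error 0.048, 95% interval 0.0033 to 0.21, limma unadjusted p = 0.044, adjusted p = 0.942). An antisense RNA, 4732440D04Rik, shares 313 of the 7607 exon bases of Rb1cc1 and averaged 190 ± 44.4 in AAV8-irisin and 136 ± 24.9 in AAV8-GFP. Rb1cc1 also shares 673 of its 8203 stretches of 50 bases with Gm13961. The strand setting of the counting and its treatment of shared reads are not known here, so the value of Rb1cc1 is uncertain to that extent.

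Neither ULK kinase differed beyond the spread between mice. Ulk2 had 3992, 3916, 3818, 3936 and 4000 normalised counts in AAV8-irisin, against 3372, 3960, 4094, 4096 and 3970 in AAV8-GFP. The low value of AAV8-GFP mouse 1 lay apart from the other 9 mice, and the log2 difference was 0.016 with all mice and −0.035 without that mouse. Ulk1, the kinase that AMPK and mTORC1 act on, averaged 3146 ± 224 in AAV8-irisin and 3202 ± 176 in AAV8-GFP (log2 difference −0.026, 95% interval −0.14 to 0.086). The adaptor Atg13 had a log2 difference of 0.041, and its partner Atg101 one of −0.045.

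In the class III PI3-kinase group, the mean of 2 of 6 genes was higher in AAV8-irisin and 0 passed. Atg14 encodes the subunit that directs the kinase to the site where the autophagosome forms. It had 776, 787, 765, 768 and 794 normalised counts in AAV8-irisin, against 695, 731, 713, 728 and 746 in AAV8-GFP. Every AAV8-irisin mouse lay above every AAV8-GFP mouse, with 765 as the lowest of the first and 746 as the highest of the second. The log2 difference was 0.11 with a standard error of 0.044 (95% interval 0.012 to 0.20, limma unadjusted p = 0.030, adjusted p = 0.942). It ran from 0.093 to 0.12 when any 1 mouse was left out. The gene lies on chromosome 14, 47540893 to 47570649, minus strand of mm10, and 239 of its 3729 exon bases are shared with an antisense RNA, Gm49004, that averaged 1.37 ± 1.60 in AAV8-irisin and 2.93 ± 3.07 in AAV8-GFP.

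The promoter stretch that RefSeq gives for Atg14 is shown because Atg14 was the gene without overlap, and because it holds the letters CACGTG, the E-box core that TFEB, a transcription factor of lysosome and autophagy genes, is known to bind. The stretch is chr14:47568385-47568684 on the minus strand of GRCm38.p6, from RefSeq, with 250 bases before the RefSeq start and 50 after it. That start, at 47568434, lies 2215 bases inside the gene bounds given above from GENCODE, whose 5′ end is at 47570649. Those bounds span all transcripts of the gene, and whether a GENCODE transcript also starts at the RefSeq position was not examined. The motif is in capitals.
Atg14: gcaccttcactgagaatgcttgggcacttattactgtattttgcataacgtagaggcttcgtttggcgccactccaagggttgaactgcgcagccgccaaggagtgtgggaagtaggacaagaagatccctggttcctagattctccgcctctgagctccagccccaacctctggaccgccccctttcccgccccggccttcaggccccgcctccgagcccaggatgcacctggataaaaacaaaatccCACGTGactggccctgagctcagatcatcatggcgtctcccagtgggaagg
The motif spans bases 250 to 255 of the stretch, so it begins 1 base before the start. The same letters were in the RefSeq stretches of Atg3, Atg5 and Atg7, all of the conjugation systems, and 30 bases around each motif are given for comparison. The RefSeq start of Atg7 lies 27999 bases inside the GENCODE bounds of the gene, that of Atg3 lies 44 inside, and that of Atg5 lies 19 outside.
Atg3, chr16:45158723-45158752, plus strand: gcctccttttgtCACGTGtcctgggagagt
Atg3, chr16:45158746-45158775, plus strand: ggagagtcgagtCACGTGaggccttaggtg
Atg5, chr10:44268313-44268342, plus strand: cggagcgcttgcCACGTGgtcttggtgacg
Atg7, chr6:114670952-114670981, plus strand: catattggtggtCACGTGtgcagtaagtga
The table of promoters held 33 stretches for 30 of the 36 genes. In 22 of the 33 the first 40 bases after the start were found in a GENCODE transcript of the gene, with Atg14 and Atg3 among them but not Atg5 or Atg7. Of these stretches 4, or 12.1%, held CACGTG, which reads the same on both strands, against 7.15% of 32851 such stretches of all genes. The longer CLEAR element, which contains these letters, was in 0 of the 33 stretches and in 0.326% of all stretches. The presence of these letters is a description of the stretch and not of binding. The expression of the genes with the letters went both ways, with log2 differences of 0.11 for Atg14 and 0.024 for Atg5, and of −0.043 for Atg7 and −0.019 for Atg3.

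Becn1 encodes Beclin 1, the regulatory subunit shared by the PI3-kinase complexes, whose reduced amount has been linked to amyloid in mice. Its normalised counts were 3665, 3704, 3821, 3497 and 3898 in AAV8-irisin, against 3822, 3687, 3608, 3801 and 3761 in AAV8-GFP. The AAV8-irisin values spanned the whole AAV8-GFP range, with a log2 difference of −0.0079 (95% interval −0.086 to 0.070). Exons of Cntd1 on the opposite strand cover 55.1% of the exon bases of Becn1, and Cntd1 itself averaged 41.1 ± 6.62 in AAV8-irisin and 35.8 ± 10.4 in AAV8-GFP.

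Uvrag, which replaces Atg14 in the complex of endosomes, had 1423, 1517, 1530, 1493 and 1424 normalised counts in AAV8-irisin, against 1432, 1469, 1740, 1638 and 1476 in AAV8-GFP. The AAV8-GFP mice 3 and 4 were the highest, and the other 8 mice lay between 1423 and 1530. Its log2 difference was −0.067 with a standard error of 0.055 (limma adjusted p = 0.942), and −0.024 without AAV8-GFP mouse 3. Pik3r4, the pseudokinase VPS15 that holds the complex together, had 1538, 1488, 1562, 1550 and 1452 in AAV8-irisin, against 1519, 1494, 1516, 1672 and 1689 in AAV8-GFP. Here too the higher AAV8-GFP values belonged to a pair of mice, numbers 4 and 5, and the log2 difference was −0.054 with a standard error of 0.047, and −0.029 without AAV8-GFP mouse 5 or −0.033 without mouse 4. The catalytic subunit gene Pik3c3 averaged 1623 ± 52.0 in AAV8-irisin and 1605 ± 34.9 in AAV8-GFP. Ambra1, a regulator that binds Beclin 1, averaged 2705 ± 126 in AAV8-irisin and 2725 ± 63.5 in AAV8-GFP.

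**Figure D2:**
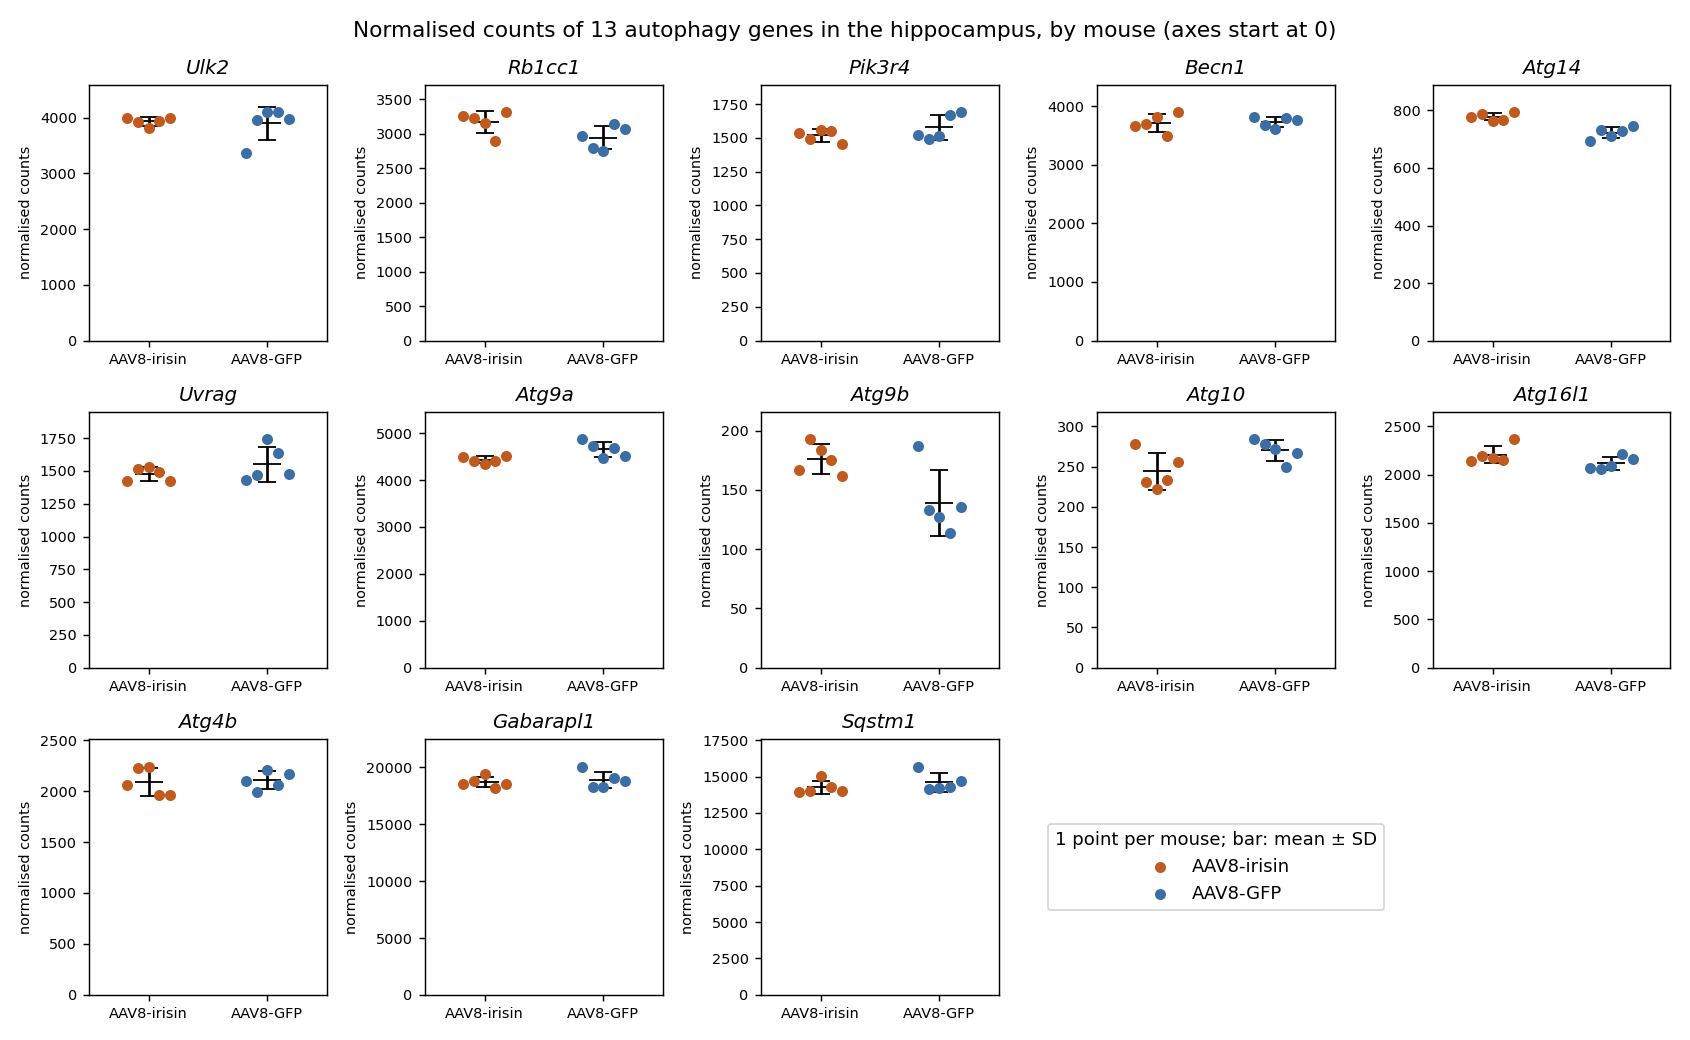
Normalised counts of 13 autophagy genes in each mouse (1 point per mouse, AAV8-irisin left, AAV8-GFP right), with mean and SD over 5 mice. Points of Atg14 do not overlap between groups, and in Atg9b and Ulk2 the point of AAV8-GFP mouse 1 lies far from its group.

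Proteins of membrane supply come next in the pathway. ATG9 is a lipid scramblase that travels in vesicles, ATG2 proteins pass lipids from the endoplasmic reticulum to the growing membrane, and WIPI proteins read the lipid made by the PI3-kinase. Of these 6 genes, 2 had a mean that was higher in AAV8-irisin and 0 passed. The ATG9 paralogs had differences of opposite sign, on very different levels. Atg9a, the form found in most tissues, had 4498, 4407, 4344, 4405 and 4517 normalised counts in AAV8-irisin, against 4866, 4736, 4471, 4680 and 4511 in AAV8-GFP. In AAV8-irisin 3 of 5 mice lay under the whole AAV8-GFP range, and the log2 difference was −0.069 with a standard error of 0.033 (95% interval −0.14 to 0.0013, limma unadjusted p = 0.054, adjusted p = 0.942). On its own strand Atg9a shares 1832 of 4383 exon bases with Gm29253, which averaged 8.35 ± 10.6 in AAV8-irisin and 6.45 ± 7.43 in AAV8-GFP, so counting could divide reads between them. Ankzf1, on the opposite strand, shares 46 of those bases and averaged 958 ± 46.4 in AAV8-irisin and 1060 ± 68.0 in AAV8-GFP.

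Atg9b, a paralog known mainly from placenta and pituitary, was the least abundant of the 36 genes per length. Its normalised counts were 167, 193, 184, 175 and 162 in AAV8-irisin, against 187, 133, 127, 114 and 136 in AAV8-GFP. All 5 AAV8-irisin mice lay above 4 of the AAV8-GFP mice, and AAV8-GFP mouse 1 lay among the AAV8-irisin mice. The log2 difference of 0.35 was the largest in size of the 36, with a standard error of 0.12 (95% interval 0.094 to 0.61, limma unadjusted p = 0.011, adjusted p = 0.942). Without AAV8-GFP mouse 1 it was 0.46 (limma unadjusted p = 0.00031, adjusted p = 0.982). Over all omissions of 1 mouse the limma unadjusted p ran from 0.00031 to 0.034 and the adjusted p from 0.794 to 1.00. Of its 3902 exon bases, 294 are shared with Nos3, the endothelial nitric oxide synthase gene on the opposite strand. Nos3 averaged 312 ± 23.3 in AAV8-irisin and 355 ± 31.8 in AAV8-GFP, and how reads from the shared bases were counted is not known here.

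For the lipid transfer genes, Atg2a averaged 2089 ± 56.9 in AAV8-irisin and 2122 ± 159 in AAV8-GFP, where AAV8-GFP mouse 1 had 2400. Atg2b averaged 2577 ± 187 in AAV8-irisin and 2523 ± 93.2 in AAV8-GFP. Wipi1 had a log2 difference of −0.048 and Wipi2, which recruits the conjugation machinery through ATG16L1, one of −0.022. Each of these 4 differences was smaller than its standard error.

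The conjugation group holds enzymes that work in the way of ubiquitin ligases: Atg7 is the activating enzyme, Atg3 and Atg10 are the conjugating ones, and the Atg12, Atg5 and Atg16l1 products form the complex that places ATG8 on lipid. Of these 7 genes, 3 had a mean that was higher in AAV8-irisin and 0 passed. Atg10, which joins ATG12 to ATG5, had 278, 231, 222, 234 and 256 normalised counts in AAV8-irisin, against 284, 278, 272, 250 and 267 in AAV8-GFP. There 3 of 5 AAV8-irisin mice lay under the AAV8-GFP range, while AAV8-irisin mouse 1 was close to the top of the AAV8-GFP range. The log2 difference was −0.15 with a standard error of 0.079, the lowest of the 36 (95% interval −0.32 to 0.018, limma unadjusted p = 0.076, adjusted p = 0.942).

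Atg16l1, the targeting subunit of the ligase, had 2144, 2192, 2170, 2156 and 2363 normalised counts in AAV8-irisin, against 2070, 2057, 2088, 2209 and 2165 in AAV8-GFP. Its high value in AAV8-irisin mouse 5 stood apart from the other 4, which overlapped AAV8-GFP. Over all mice the log2 difference was 0.058 with a standard error of 0.040, and 0.033 without AAV8-irisin mouse 5. Atg5 and Atg12 had differences of 0.024 and 0.0024, and Atg12 averaged 1881 ± 59.3 in AAV8-irisin and 1878 ± 71.3 in AAV8-GFP. Atg7 averaged 943 ± 40.2 in AAV8-irisin and 972 ± 48.2 in AAV8-GFP, and Atg3 averaged 1300 ± 81.7 in AAV8-irisin and 1317 ± 67.5 in AAV8-GFP. Atg16l2, a paralog of Atg16l1, had the widest interval of the group after Atg10, from −0.20 to 0.12.

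ATG4 proteases trim new ATG8 proteins before conjugation and take them off membranes afterwards. Of the 4 genes, 2 had a mean that was higher in AAV8-irisin and 0 passed. Atg4b, the protease with the widest range of ATG8 substrates, had 2057, 2228, 2240, 1961 and 1964 normalised counts in AAV8-irisin, against 2104, 1990, 2210, 2060 and 2170 in AAV8-GFP. The AAV8-irisin mice fell on both sides of the AAV8-GFP range, with 2 above it and 2 below. The difference on the log2 scale was −0.013 with a standard error of 0.049. X-linked Atg4a varied most between mice of the 36 genes, with 158, 132, 206, 215 and 233 in AAV8-irisin, against 114, 128, 201, 205 and 159 in AAV8-GFP. Its standard error of 0.18 was the largest of the 36, and the log2 difference was 0.23 (95% interval −0.16 to 0.63). Omitting AAV8-GFP mouse 1 gave 0.12. Omitting AAV8-irisin mouse 5 gave 0.15, omitting AAV8-irisin mouse 2 gave 0.35, and library weights gave 0.13. Of the 50-base stretches of its transcripts, 63.6% also occur in the pseudogene Atg4a-ps, which was listed at 0.853 ± 1.41 in AAV8-irisin and 0.911 ± 1.08 in AAV8-GFP, so its value depends on how such reads were counted. Atg4c and Atg4d had log2 differences of 0.021 and −0.037. Kri1 on the opposite strand covers 1405 of the 5951 exon bases of Atg4d, and it averaged 1215 ± 78.2 in AAV8-irisin and 1297 ± 116 in AAV8-GFP, above the level of Atg4d itself.

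The ATG8 genes held small differences on high levels. Of these 5 genes, 1 was higher on average in AAV8-irisin, 4 were lower, and 0 passed, with log2 differences between −0.036 and 0.0075. The 95% interval of each of the 5 lay within 0.2 of 0. Gabarapl1, a GABARAP form known to be abundant in brain, had 18505, 18850, 19406, 18221 and 18523 normalised counts in AAV8-irisin, against 20073, 18309, 18326, 19037 and 18808 in AAV8-GFP. The groups overlapped almost fully, and the highest value was that of AAV8-GFP mouse 1. The log2 difference was −0.016 with a standard error of 0.032, the smallest of the 36. Map1lc3b, the LC3 form most used to count autophagosomes, averaged 5621 ± 199 in AAV8-irisin and 5764 ± 234 in AAV8-GFP. Map1lc3a averaged 3817 ± 137 in AAV8-irisin and 3916 ± 363 in AAV8-GFP, Gabarap 3292 ± 207 in AAV8-irisin and 3278 ± 267 in AAV8-GFP, and Gabarapl2 3921 ± 111 in AAV8-irisin and 3979 ± 133 in AAV8-GFP. Map1lc3b shares 334 of its 5229 stretches of 50 bases with Gm6055 and other loci, and Gabarapl2 shares 277 of 1628 with Gm3724 and others, so both are uncertain by the reads that fall there.

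AAV8-GFP mouse 1 was the highest of all 10 mice in Map1lc3a, Map1lc3b, Gabarap and Gabarapl1, and also in Sqstm1. Its ATG8 genes lay on average 0.13 log2 units above the mean of the 10 mice, while the other mice lay between −0.062 and 0.065. Without it the log2 difference of Map1lc3a was 0.021 and that of Gabarapl1 was 0.0061, turning both signs.

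**Figure D3:**
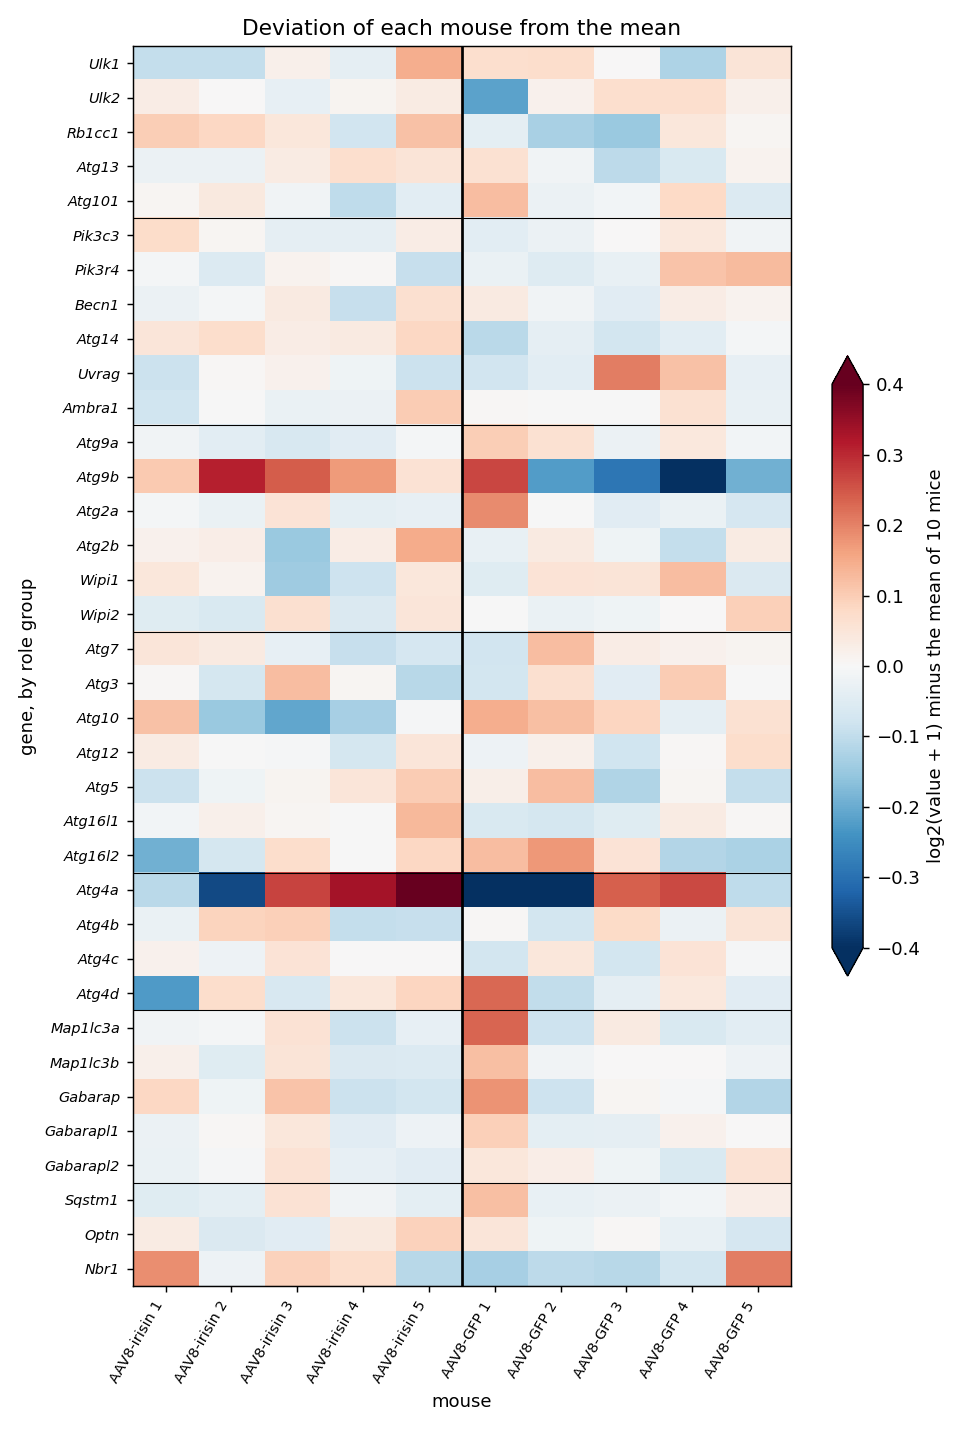
Deviation of log2(normalised count + 1) of each mouse (columns) from the mean of 10 mice, for the 36 autophagy genes (rows, by role). Red is higher and blue lower, and the colours saturate beyond 0.4. The column of AAV8-GFP mouse 1 is red over most ATG8 genes, and the row of Atg4a varies most in both groups.

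Cargo receptors link ubiquitinated proteins or organelles to ATG8. Of the 3 genes, 2 had a mean that was higher in AAV8-irisin and 0 passed. Sqstm1 encodes p62, a receptor that autophagy itself degrades and that gathers with aggregates. Its normalised counts were 13931, 14021, 15019, 14284 and 14017 in AAV8-irisin, against 15685, 14120, 14194, 14313 and 14674 in AAV8-GFP. In AAV8-irisin 3 of 5 mice lay just below the lowest AAV8-GFP mouse, and AAV8-GFP mouse 1 was the highest. The log2 difference was −0.034 with a standard error of 0.035 (95% interval −0.11 to 0.041, limma adjusted p = 0.944). It was −0.0075 without AAV8-GFP mouse 1 and −0.053 without AAV8-irisin mouse 3. Exons of Mrnip on the opposite strand cover 20.5% of the exon bases of Sqstm1, and Mrnip averaged 202 ± 12.7 in AAV8-irisin and 209 ± 22.6 in AAV8-GFP. Nbr1, a receptor that acts beside p62, had 6319, 5475, 5919, 5830 and 5145 in AAV8-irisin, against 5065, 5164, 5144, 5284 and 6408 in AAV8-GFP. AAV8-GFP mouse 5, at 6408, was the highest of all, and the other AAV8-GFP mice lay at 5065 to 5284. All AAV8-irisin mice but mouse 5 lay above those, at 5475 to 6319, and AAV8-irisin mouse 5 lay among them. The log2 difference of Nbr1 was 0.086 with a standard error of 0.066. It was 0.15 without AAV8-GFP mouse 5 and 0.050 without AAV8-irisin mouse 1. Optn, the mitophagy receptor optineurin, averaged 651 ± 28.4 in AAV8-irisin and 640 ± 19.2 in AAV8-GFP.

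Levels between genes were compared per kb of exon, over all exon bases of the basic protein-coding transcripts of a gene. The order therefore depends on which transcripts are present, which was not examined. Gabarapl1 led with 10275 ± 249 normalised counts per kb in AAV8-irisin and 10391 ± 396 in AAV8-GFP. Sqstm1 followed with 5049 ± 159 in AAV8-irisin and 5171 ± 228 in AAV8-GFP, and Map1lc3a with 3432 ± 123 in AAV8-irisin and 3521 ± 327 in AAV8-GFP. Gabarap and Gabarapl2 did not differ beyond their spread, at 2437 ± 153 and 2338 ± 66.0 in AAV8-irisin and at 2426 ± 198 and 2373 ± 79.4 in AAV8-GFP. Of the summed level of the 5 ATG8 genes per kb, Gabarapl1 made up 52.5% ± 0.515 in AAV8-irisin and 52.4% ± 0.896 in AAV8-GFP, and Map1lc3b 5.54% ± 0.0979 in AAV8-irisin and 5.61% ± 0.0567 in AAV8-GFP. The exon length used was 5182 bases for Map1lc3b and 1112 for Map1lc3a. Before division by length, Map1lc3b averaged more than Map1lc3a, at 5621 against 3817 in AAV8-irisin and 5764 against 3916 in AAV8-GFP. At the low end Atg4a had 85.7 ± 19.0 per kb in AAV8-irisin and 73.4 ± 18.7 in AAV8-GFP, and Atg9b had 45.1 ± 3.20 in AAV8-irisin and 35.7 ± 7.18 in AAV8-GFP.

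**Figure D4:**
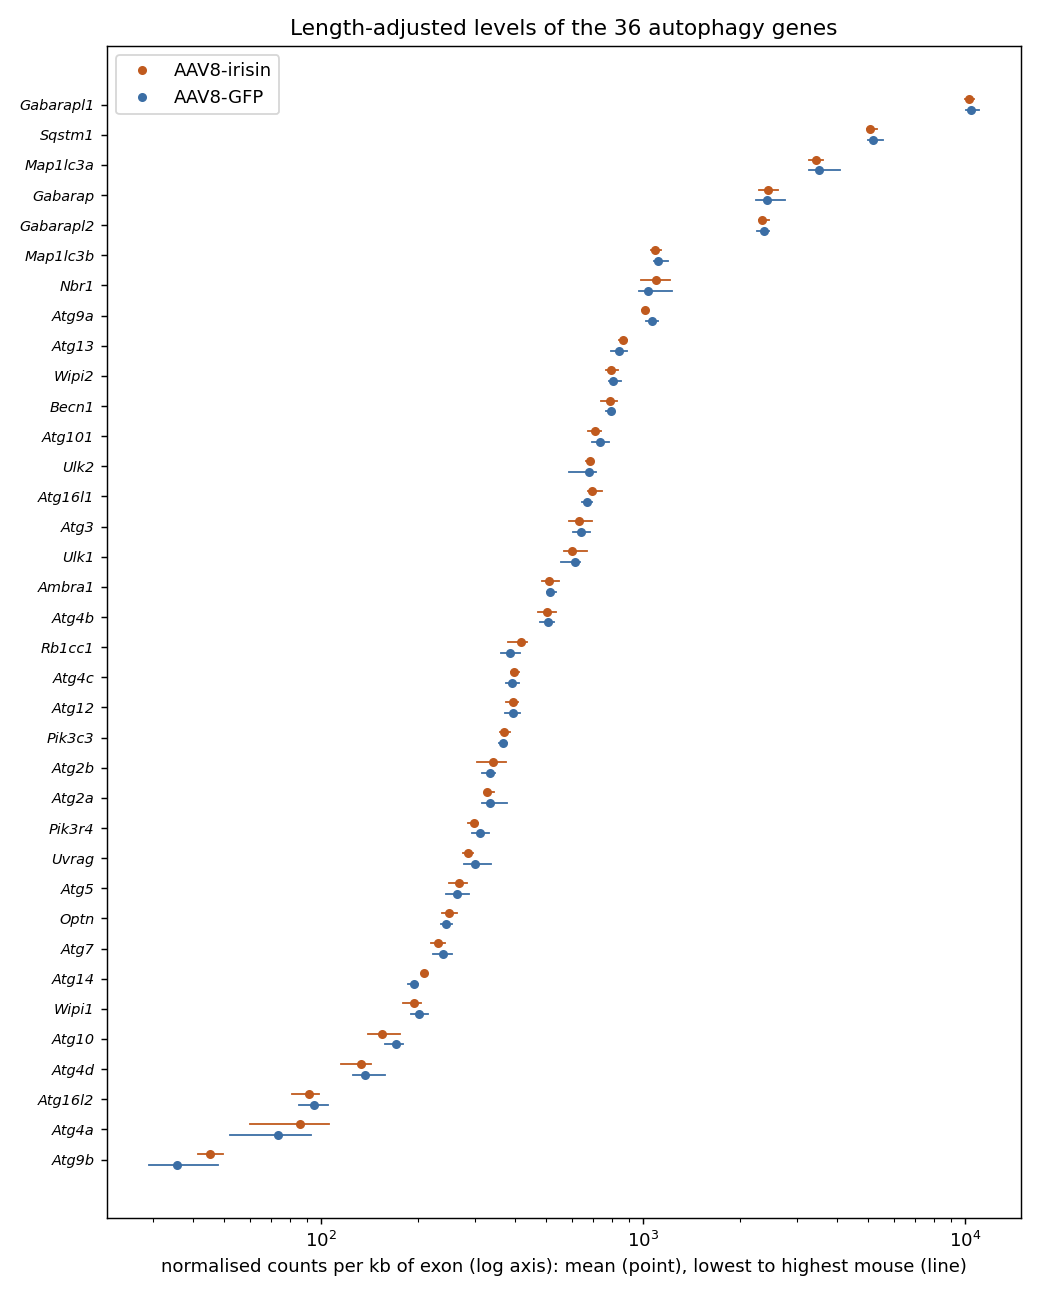
Normalised counts per kb of exon for the 36 autophagy genes, ordered by the mean of 10 mice, on a log axis (points are group means, lines run from the lowest to the highest mouse of a group). Gabarapl1 is at the top and Atg9b at the bottom, and the groups lie close to each other along the whole order.

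Genes around the core machinery were counted by role, and 0 of 67 tested genes passed. Of 17 genes of mTORC1 and AMPK, the kinases that restrain and start autophagy, 8 had a mean that was higher in AAV8-irisin, and the median of their log2 differences was −0.0093. Deptor, an inhibitor bound to mTOR, had 552, 528, 455, 534 and 538 normalised counts in AAV8-irisin, against 498, 507, 411, 430 and 428 in AAV8-GFP. In 4 of 5 AAV8-irisin mice it exceeded every AAV8-GFP value (log2 difference 0.20, limma adjusted p = 0.942). Tsc2, which holds mTORC1 back through Rheb, had 5517, 5727, 6025, 5484 and 6148 in AAV8-irisin, against 7194, 5951, 6292, 6038 and 6559 in AAV8-GFP (log2 difference −0.15, limma adjusted p = 0.942). Tsc2 shares 693 of 6338 exon bases with Pkd1 on the opposite strand, which averaged 6223 ± 423 in AAV8-irisin and 6441 ± 295 in AAV8-GFP. Of 7 tested transcription factors, 2 had a higher mean, with log2 differences of −0.099 for Tfeb, the regulator of lysosomal genes, and −0.021 for Foxo1. The Tfeb value was −0.048 on omitting AAV8-irisin mouse 4 and −0.049 on omitting AAV8-irisin mouse 1, and that of Foxo1 ran from −0.039 to −0.0041 over omissions of 1 mouse.

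Partners of the membrane and of the PI3-kinase had 4 higher and 6 lower means of 10. Wdr45, a WIPI protein mutated in a human disease of brain iron, had a log2 difference of −0.11, with 4 of 5 AAV8-irisin mice under the AAV8-GFP range, and it shares 818 of 1664 exon bases with Gm45208 on its own strand. Tmem41b, a scramblase of the endoplasmic reticulum, had one of 0.085, and of 0.0022 without AAV8-GFP mouse 1. Of 13 other cargo receptors 7 had a higher mean, with log2 differences of 0.094 for Retreg1, a receptor for endoplasmic reticulum, and 0.066 for the mitophagy receptor Bnip3. The 5 genes of mitophagy and its kinases had 3 higher means, with a log2 difference of 0.069 for Usp15, a deubiquitinase, which ran from 0.039 to 0.095 over omissions of 1 mouse. Fusion with lysosomes had 11 higher means of 15 and a median log2 difference of 0.023, with 0.047 for Vps41, a subunit of the HOPS tether, and 0.14 for Stx17, the SNARE protein of mature autophagosomes. The Stx17 value was 0.069 without AAV8-GFP mouse 1 and 0.22 without AAV8-irisin mouse 3. Each gene named here from these lists had a limma adjusted p of 0.942, except Foxo1 at 0.964. Of the 67 tested genes, those with a limma unadjusted p under 0.05 were Tsc2 (0.013), Deptor (0.021), Wdr45 (0.047) and Retreg1 (0.048). Of all genes tested, 4.49% had an unadjusted p under 0.05.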

How the data were processed

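Hippocampal RNA of 10 mice was sequenced, with oligo(dT) selection per the labels' protocols. The submitters' processing notes name bcl2fastq 2.17, DESeq2 and mm10. Aligner, counting tool and strand setting: not given in the sources used here. For each gene the deposited values are a signal that the authors' table calls DESeq2 normalised counts. Of low values, 56.8% to 75.6% per library were whole multiples of 1 read within 0.1 reads, so reads could not be recovered, no count test was run, and depths are estimates.

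Genes reaching 10 in 5 or more of 10 libraries were tested on log2(value + 1) with limma 3.58.1 in R 4.3.3 (eBayes with trend, two-sided, Benjamini-Hochberg threshold 0.05). A shift common to every gene would be lost in the scaling. Each title names its own mouse, and p-values rest on the variation among mice. The test was tested on simulated data with changes planted in 200 genes. The planted changes were larger than most differences reported here, so the simulation does not cover differences of that size.

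Gene members and lists were chosen with earlier results of these data known, so no set test was made. Values are given in every mouse for genes without overlap between groups, for the 4 of smallest p in each direction and for the most abundant of each role, with Atg4a, Nbr1 and Ulk1 described further after their values were seen. Of each neighbouring list the 2 genes of smallest p were named, except 1 gene that is not reported here. Positions and exon lengths are from GENCODE M21 on mm10, taking exons of basic protein-coding transcripts. Of the 36 genes, 12 have exon bases in common with another gene. Mouse numbers recur in both groups, but the labels also give each mouse an identifier that does not recur. Deviations of mice of the same number correlated between −0.089 and 0.030. These correlations cannot exclude a pairing, and the mice were not treated as pairs in the main comparison.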

Additional observations from a re-analysis of the deposited data

Results flagged for a closer look

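The screen covered 98 sets of values, each holding 1 gene in the 5 mice of 1 group. In 8 sets a mouse had a gap to the nearest other that exceeded 0.71 of the set's range, where chance gives about 1 in 20. The sets come from the same mice and are not independent, so that rate is only a rough guide. AAV8-GFP mouse 1 was such a mouse in 3 genes, with 3372 normalised counts of Ulk2 (others 3960 to 4096), 2400 of Atg2a (others 2005 to 2101) and 6178 of Map1lc3b (others 5613 to 5701). AAV8-GFP mouse 5 had 4420 of Wipi2 (others 4060 to 4144) and 6408 of Nbr1 (others 5065 to 5284). AAV8-irisin mouse 5 had 2363 of Atg16l1 (others 2144 to 2192). Outside the core machinery, AAV8-irisin mouse 3 had 455 of Deptor (others 528 to 552) and AAV8-irisin mouse 4 had 1046 of Wdr45 (others 935 to 956).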

How the results depend on the processing

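With pseudocounts of 0.5 and 10, no filter, quantile normalisation, equal library totals, no trend in the prior variance, library weights, the mouse number as a replicate block and each of 10 omissions of 1 mouse, 0 autophagy genes passed. Under the replicate block 0 genes of the table passed, as in the main comparison, and the autophagy median stayed at −0.014. Without the filter 1 gene of the table passed, Gm49383, which is no autophagy gene and was listed at 0 in AAV8-irisin. With quantile normalisation and equal totals every one of the 36 genes kept its sign. Library weights turned the sign of Ulk2 (−0.014), Atg2a (0.0057), Atg12 (−0.0055) and Map1lc3a (0.0019). Omitting 1 mouse turned the sign of 14 genes, with ranges of log2 differences of −0.0012 to 0.027 for Pik3c3, −0.038 to 0.0072 for Ambra1, −0.017 to 0.020 for Atg12, −0.067 to 0.015 for Atg4d, −0.021 to 0.053 for Gabarap, −0.025 to 0.014 for Becn1, −0.039 to 0.0094 for Atg4b, −0.0051 to 0.069 for Atg2b, −0.052 to 0.0068 for Atg3, −0.035 to 0.035 for Ulk2, −0.039 to 0.026 for Atg2a, −0.058 to 0.021 for Map1lc3a, −0.029 to 0.0061 for Gabarapl1 and −0.0037 to 0.057 for Atg5. The number of autophagy genes with a higher mean then ran from 14 to 18 and the median from −0.023 to −0.00081. The cause was not tested. Atg14, Atg9b and Rb1cc1 kept a positive difference in all of these. With no trend in the prior variance their unadjusted limma p-values were 0.0090, 0.014 and 0.077, and 3 of the 36 genes were under 0.05. With library weights they were 0.034, 0.00091 and 0.058, and 2 of the 36 genes were under 0.05. Under the replicate block they were 0.062, 0.018 and 0.063, so that 1 of the 36 genes was under 0.05 there. Mouse numbers are not known to pair the mice, so these block p-values do not measure how stable the differences are. With 5 mice a group, log2 differences near the median standard error of 0.049 could not be told from 0. The largest of the 36, 0.35 for Atg9b, did not pass the adjusted threshold either.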

Other observations

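AAV8-irisin mouse 5 held the highest value of the 10 mice in 9 of the 36 autophagy genes, while it held the highest in 9.38% of all genes tested. AAV8-irisin mouse 4 held the lowest value in 7 of the 36, while the 9 libraries other than AAV8-GFP mouse 1 each held the lowest in 7.26% to 11.5% of all genes tested. Both mice belong to the same group, and their counts are given as values with no test.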
